A study of Mus musculus with 8 samples.

Results

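The cytosolic ribosomal protein genes encode the protein subunits of the ribosome that translates nuclear-encoded mRNA. They were taken by symbol from the gene names of the count tables (Rpl, Rps, Rplp0 to Rplp2 and Rpsa, without the S6 kinases), with a mean of at least 1 CPM, counts scaled to a common library total. This gave 77 of 17700 listed genes, 46 of the large and 31 of the small subunit. Of 79 matching names, Rpl3l and Rpl39l fell under the minimum at 0.367 and 0.117 CPM, with 1 to 4 and 0 to 2 counts per library, while the lowest gene kept was Rpl24 at 3.71 CPM. Rps3a1 and Fau also encode cytosolic ribosomal proteins, but their symbols lie outside the naming pattern, and they are described apart from the 77.

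Bulk RNA-seq was made from ribosomal-RNA-depleted total RNA of frozen cerebellum of C57BL/6JN mice, 1 animal per library, and no allele or agent is named in the labels. The old group held old 1 (male, 93 weeks), old 2 (female, 83 weeks), old 3 (male, 83 weeks) and old 4 (female, 102 weeks). The young group held the males young 1 and young 2 and the female young 3, all of 19 weeks, and the female young 4 of 22 weeks. The series' design text names liver, and the sample labels name cerebellum. All 12 granule neuron markers and all 8 Purkinje cell markers had counts in every library and summed to 4520 to 7300 and 4010 to 5510 CPM, against 0.658 to 86.2 CPM for 7 liver genes. Libraries held 6079485 to 7236720 counts, and 3 counts corresponded to 0.415 to 0.493 CPM. In bulk tissue, fewer cells of a type and less RNA per cell cannot be told apart.

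The small subunit binds mRNA and decodes it, and the large subunit joins amino acids and passes the growing chain through its exit tunnel. Mammalian ribosomal protein mRNAs begin with a terminal oligopyrimidine (TOP) tract, through which the mTORC1 kinase and the RNA-binding protein LARP1 control their translation together with that of several elongation and initiation factors. The genes also have many processed pseudogenes, intronless copies that can resemble the mRNA over most of its length.

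The 77 genes together took a small and similar part of the counts in both age groups. Their summed share of library counts was 0.310%, 0.353%, 0.339% and 0.351% in the old libraries 1 to 4, against 0.360%, 0.347%, 0.317% and 0.350% in the young libraries 1 to 4. The group means were 0.338% ± 0.020 (SD, n = 4) in old and 0.344% ± 0.018 (SD, n = 4) in young cerebellum, and the ranges overlapped. The exact 95% binomial intervals were 0.306% to 0.315% for old 1 and 0.355% to 0.365% for young 1, the lowest and highest library, and they cover counting error only. The 3 old libraries other than old 1 averaged 0.348% ± 0.008 (SD, n = 3). That mean leaves out the lowest old library, while the young mean keeps its lowest, young 3 at 0.317%. It is therefore not set against the young mean.

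Levels differed widely among the 77 genes. Mean CPM, now on totals adjusted by edgeR's TMM factors, ran from 3.71 to 452, with a median of 22.9. There were 12 genes under 10 CPM and 6 at 100 CPM or more, and the 5 most counted genes held 29.4% of all counts of the 77. Per kilobase of the principal GENCODE transcript, Rpl4, whose product lines the exit tunnel, was highest at 294 CPM per kb, followed by Rps21 at 223, Rps15 at 180 and Rpl8 at 170 CPM per kb. Lowest were Rpl35 at 4.62, Rpl24 at 5.48, Rpl17 at 7.26 and Rps27l at 7.94 CPM per kb. The median was 27.3 CPM per kb. These ranks use 1 transcript per gene, and for genes whose principal transcript is long for a ribosomal protein mRNA, such as Rps15a at 5179 nt, the value per kb depends on that choice.

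Most of these transcripts also stand, at least in part, in other annotated genes. Each principal transcript was compared in words of 50 bases with every GENCODE transcript from other loci. Of the 77 genes, 31 shared more than 50% of their words with another gene and 17 shared 75% or more. Rps3 shared 2.96% and Rpl4 16.4%, while Rpl9 shared 93.3% and Rps27 98.6% of its words. Rpl7a shared words with 120 pseudogenes, the most of the 77, followed by Rpl21 and Rpl29 with 81 each and Rps2 with 71. How the authors' counting treated reads that map to several places was not stated in these sources, and levels of genes with many copies are uncertain. Over the 77 genes, the share of words elsewhere and the log2 CPM per kb had a Pearson r of -0.128 and a Spearman rho of -0.112, and all points come from the same libraries. The 13 genes with up to 25% of words elsewhere had a median of 28.8 CPM per kb and the 17 with more than 75% one of 27.3 CPM per kb. Without division by length their medians were 46.42 and 21.25 CPM. The share of words and the value per kb both depend on the length of the same principal transcript, so these values cannot show whether copies go with level.

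**Figure D1:**
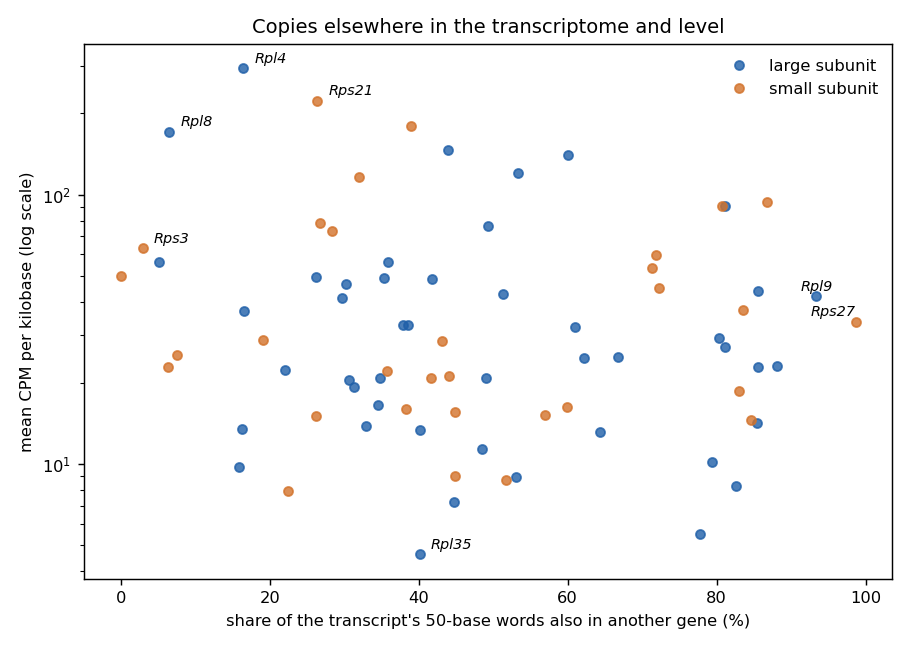
Mean CPM per kilobase (log scale) of each of the 77 ribosomal protein genes against the percentage of its transcript's 50-base words that also stand in another gene, coloured by subunit. Rpl4 is highest at 294 CPM per kb and Rpl35 lowest at 4.62, and levels at the left and right of the plot overlap.

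The comparison of old with young mice asked whether ribosomal protein transcripts differ with age in cerebellum. With sex in the model, edgeR's quasi-likelihood test gave no ribosomal protein gene an adjusted p under 0.05, against 0.120% of the 14191 genes tested. At an unadjusted p under 0.05 there were 5 of the 77 (6.49%), against 11.0% of all genes tested, and all 5 had lower values in old mice, where the background is 5.76%. The old and young values did not overlap for 2 genes (2.60%), both lower in old, against 6.57% of all genes in either direction and 3.42% lower in old. These shares were near or under the background. DESeq2's Wald test called 1 of the 77, Rps3, against 0.881% of all genes, and limma-voom called none of the 77 and 0.00705% of all genes.

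Of the 77 log2 fold changes (old minus young), 42 were negative and 35 positive, with a median of -0.05, beside 51.3% negative and a median of -0.01 over all genes tested. They ran from -0.54 to 0.36. The large subunit had 26 of 46 negative with a median of -0.05, and the small subunit 16 of 31 negative with a median of -0.05. Standard errors ran from 0.07 for Rpl4 to 0.27 for Rpl32, with a median of 0.13. The 95% interval of the age difference lay within a 1.5-fold change in either direction for 65 of the 77 genes, and within a 2-fold change for 76. The exception was Rpl38, whose interval ran from -1.07 to -0.00 on the log2 scale.

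**Figure D2:**
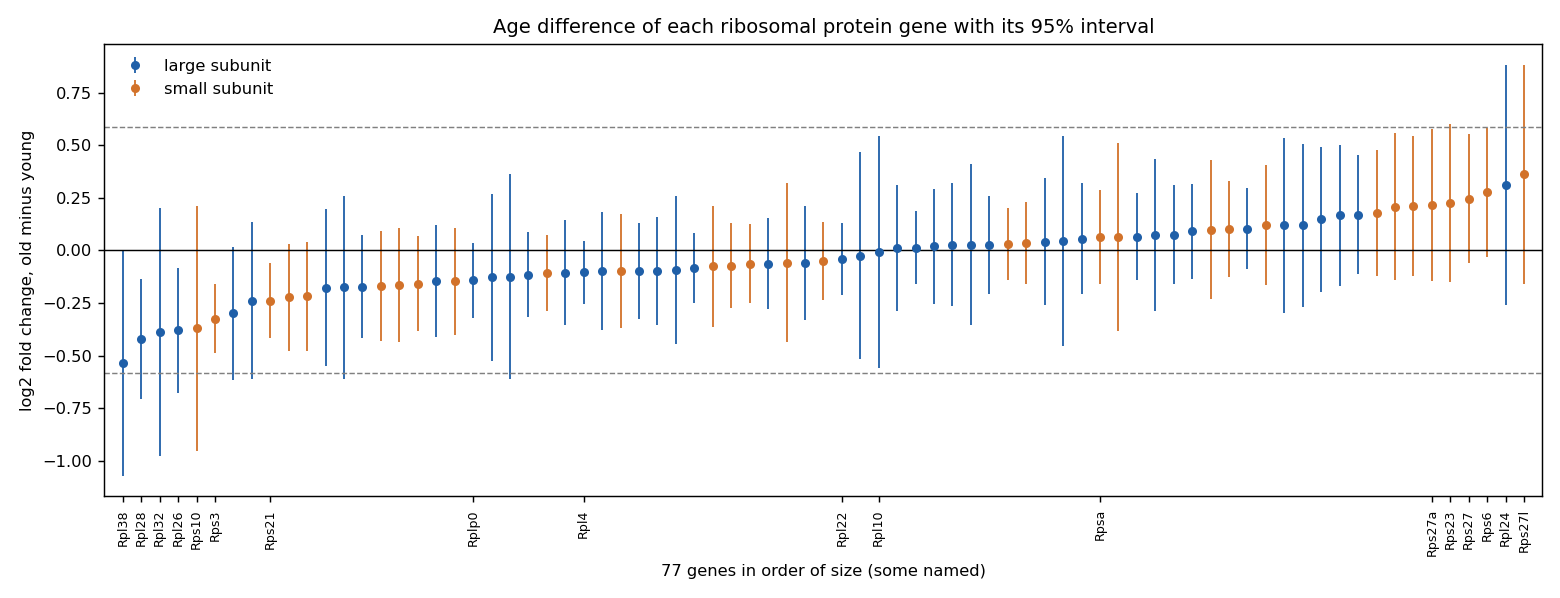
Log2 fold change (old minus young) of the 77 genes in order of size, with 95% intervals from edgeR's quasi-likelihood fit, coloured by subunit, with some genes named and dashed lines at a 1.5-fold change. The values run from -0.54 for Rpl38 to 0.36 for Rps27l, and 65 of the intervals lie between the dashed lines.

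Rps3, a protein at the mRNA entry site of the small subunit that also has a role in DNA repair, had the smallest p of the 77. The gene lies on the minus strand of chromosome 7 at 99477896 to 99483738 (GRCm38). The old libraries 1 to 4 had 101, 109, 114 and 104 CPM, and the young libraries 1 to 4 had 140, 128, 128 and 139 CPM. Each old library lay below each young one, by a mean of 107 ± 5.48 against 134 ± 6.77 CPM (SD, n = 4 each). The log2 fold change was -0.32 ± 0.07 (SE), with a 95% interval of -0.49 to -0.16 and an adjusted p = 0.137 by edgeR's test. DESeq2's Wald test gave -0.32 with an adjusted p = 0.0420. Its sequence is nearly free of copies, with 2.96% of its words found in 1 pseudogene.

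Rpl28, a large subunit protein, was the other gene without overlap between the ages. It had 14.8, 16.7, 15.1 and 16.3 CPM in the old libraries 1 to 4 and 25.1, 20.9, 18.4 and 19.9 CPM in the young ones, with the highest old value just under the lowest young one. The log2 fold change was -0.42 ± 0.13 (SE), with an adjusted p = 0.252 by edgeR's test. Rps21, a small subunit protein, had 74.3, 91.4, 75.9 and 80.6 CPM in old and 93.5, 96.6, 89.8 and 99.8 CPM in young mice, so that old 2 lay above young 3 alone. Its log2 fold change was -0.24 ± 0.08 (SE).

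Rpl26, which lies near the tunnel exit and is known to bind p53 mRNA, had 15.2, 18.4, 19.2 and 15.3 CPM in old and 23.7, 18.2, 22.7 and 24.1 CPM in young mice. Young 2 stood within the old range, and the log2 fold change was -0.38 ± 0.14 (SE). Rpl38, a large subunit protein known from the Tail-short mouse for its part in the translation of Hox mRNAs, had 4.01, 4.46, 7.08 and 4.58 CPM in old and 7.60, 6.27, 5.62 and 9.40 CPM in young mice. The groups overlapped through old 3, and the log2 fold change was -0.54 ± 0.24 (SE) at 25 to 67 counts per library. None of Rps21, Rpl26 and Rpl38 passed the adjusted threshold by edgeR's test, at 0.298, 0.324 and 0.452.

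Among the other genes at the low end, Rpl32 and Rps10 varied strongly within the age groups. Rpl32 had 8.02 to 12.7 CPM in old and 8.01 to 18.8 CPM in young mice, and Rps10, whose human counterpart is mutated in Diamond-Blackfan anaemia, 4.89 to 9.75 and 5.96 to 13.0 CPM. Their log2 fold changes of -0.39 and -0.37 had SE of 0.27 each. At the high end, Rps27l, a paralog of Rps27 that is induced by p53, had 4.01 to 5.04 CPM in old and 2.73 to 4.23 CPM in young mice, which gave 0.36 ± 0.24 (SE) on the log2 scale. Rpl24 followed at 0.31 ± 0.26. Rps6, the S6 kinase substrate, had 11.9, 15, 15.4 and 13.6 CPM in old and 12.4, 11.3, 11.1 and 11.4 CPM in young mice, and only young 1 reached into the old range. Its log2 fold change was 0.28 ± 0.14 (SE), with an adjusted p = 0.508 by edgeR's test. Rps27, Rps27a (made as a ubiquitin fusion) and Rps23, a protein of the decoding centre, had 0.24 ± 0.14, 0.22 ± 0.17 and 0.22 ± 0.17. In the 6 genes with the largest log2 fold changes between 22.4% (Rps27l) and 98.6% (Rps27) of the words stood elsewhere, and in the 6 with the smallest between 2.96% (Rps3) and 61.0% (Rpl26). Over all 77 genes the share of words elsewhere and the log2 fold change had a Pearson r of 0.242 and a Spearman rho of 0.217.

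**Figure D3:**
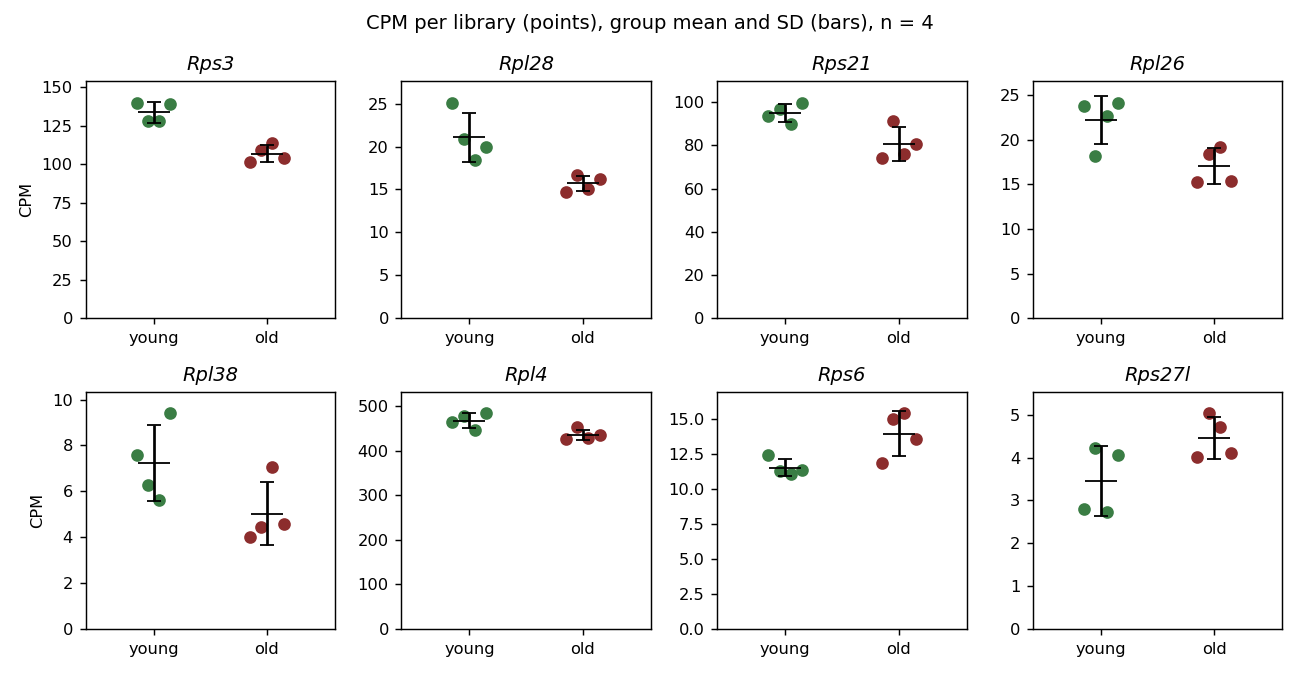
CPM in each library (points) with the group mean and SD (bars, n = 4) for 8 ribosomal protein genes, on axes that start at 0. The groups are apart for Rps3 (101 to 114 against 128 to 140 CPM) and Rpl28, and they overlap for the other 6 genes shown.

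Rpl4 gave the most precise value of the 77, with a within-age SD of 0.05 on the log2 scale. It had 426, 453, 428 and 436 CPM in old and 464, 478, 447 and 485 CPM in young mice. Old 2 lay above young 3, and the log2 fold change was -0.10 ± 0.07 (SE), with a 95% interval of -0.25 to 0.05. A 1.5-fold change in either direction lay outside that interval.

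The acidic stalk, which recruits elongation factors, is built from Rplp0, Rplp1 and Rplp2. Rplp0 had 58.9 to 67.3 CPM in old and 66.1 to 72.6 CPM in young mice, and its log2 fold change was -0.14 ± 0.08 (SE). Rplp1 and Rplp2 stood at -0.10 ± 0.10 and 0.02 ± 0.12, and all 3 overlapped between the ages. Rpsa, a small subunit protein that is also known as a laminin receptor, had 37.9 to 48.0 CPM in old and 36.5 to 41.9 CPM in young mice, at 0.06 ± 0.10.

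Several members have a close paralog in the genome. Rpl22 had 114 ± 7.54 CPM in old and 117 ± 8.93 CPM in young mice (SD, n = 4 each), and its paralog Rpl22l1, not one of the 77, had a log2 fold change of -0.05 ± 0.16. Rpl3 and Rpl39, whose paralogs Rpl3l and Rpl39l fell under the level minimum, had 0.09 ± 0.10 and 0.12 ± 0.19. Rpl7 and Rpl7l1 stood at 0.01 ± 0.08 and -0.13 ± 0.11, and Rpl36a and Rpl36al at -0.18 ± 0.17 and -0.10 ± 0.30. Rps4x, on the X chromosome, had a log2 fold change of 0.10 ± 0.10. Rpl13 and Rpl13a, which share a name but are different proteins, had -0.10 ± 0.13 and 0.04 ± 0.14. Rpl10, a late-joining large subunit protein, had one of the widest within-age spreads at an SD of 0.45 on the log2 scale, from 6.10 CPM in old 1 to 16.2 CPM in old 3. None of these pairs had a member past the threshold by edgeR's test.

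The widest difference among libraries was between old 1 and the rest. The median deviation of the 77 genes from their mean log2 CPM over the 8 libraries was -0.23 in old 1 and 0.06, 0.05 and 0.04 in old 2, old 3 and old 4. In young 1 to young 4 it was 0.09, 0.02, -0.09 and 0.10. In old 1, 63 of the 77 genes lay below their mean. Old 1 was the lowest of the 8 libraries for 43 of the 77 (55.8%), against 15.9% of all genes tested. Young 3 was the lowest for 13 of the 77 (16.9%), against 9.31% of all genes tested, and 59 genes lay below their mean there. The shift in old 1 was -0.30 at the median for the large and -0.12 for the small subunit. Rpl10 was furthest below its mean in old 1, at -0.91, followed by Rps26 at -0.58 and Rpl6 at -0.54, whereas Rpl36 at 0.21, Rps27 at 0.15 and Rpl10a at 0.13 lay above it. They are named here because of these values. Without old 1 the median log2 fold change of the 77 was 0.01 with 37 negative, in place of -0.05 with 42 negative. Without young 3, the lowest young library, that median was -0.07 with 53 negative.

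Other short transcripts shifted with the ribosomal protein genes across the libraries. The ribosomal protein genes are short, with a median transcript length of 878 nt against 3118 nt for all genes tested, and 68 of the 77 belong to the 20% of genes with the shortest transcripts. With the 77 left out, that class had a median deviation of -0.08 in old 1, -0.04 in young 3 and between 0.00 and 0.06 in the other 6 libraries. Nuclear-encoded oxidative phosphorylation genes stood at -0.20 in old 1 and mitochondrial ribosomal protein genes at -0.15. Over the 8 libraries, the median of the 77 genes had a Pearson r of 0.947 with that of the other short transcripts, 0.935 with that of the mitochondrial ribosomal protein genes and 0.821 with that of the oxidative phosphorylation genes, all from the same libraries and scaling factors. In old 1 the median deviation of the granule neuron markers was -0.14 and that of the Purkinje cell markers -0.27, with all listed markers counted. The granule median was lower still in old 4 (-0.39) and young 2 (-0.21), where the median of the 77 was 0.04 and 0.02. Over the 8 libraries the medians of the 77 and of the granule markers had a Pearson r of 0.413 and a Spearman rho of 0.762. The sum of the granule markers was 5260 CPM in old 1, within the 4870 to 7300 CPM of the young libraries, and that of the Purkinje markers was 4010 CPM, below the 4420 to 5510 CPM of the young libraries. Choroid plexus markers summed to 498 CPM in old 1, within the 49.0 to 940 CPM of the old libraries and above the 36.9 to 438 CPM of the young ones. With a correction for transcript length the median age difference of the 77 was -0.02, and with the granule neuron marker score as a covariate it was -0.02. Other settings moved this median as well. It was also -0.02 with the GC correction, -0.003 without young 1, and between -0.071 and 0.012 over all left-out libraries. The part of transcript length and of these cell types in the old 1 values was not tested.

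**Figure D4:**
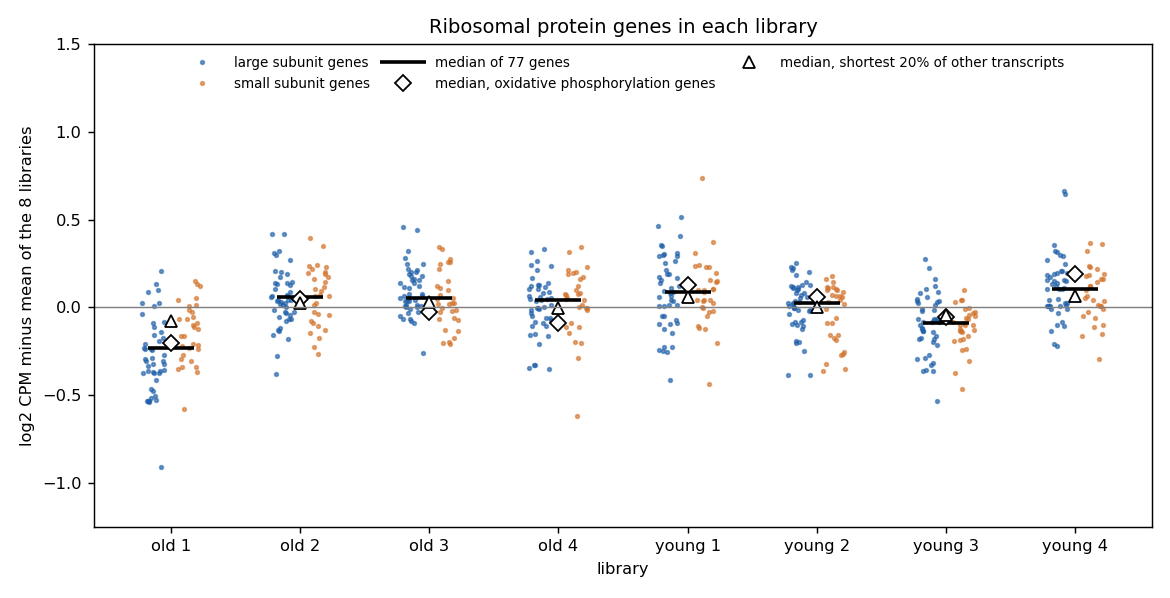
Log2 CPM of each ribosomal protein gene minus its mean over the 8 libraries, by library and subunit (points), with the median of the 77 (bar) and the medians of oxidative phosphorylation genes (diamonds) and of the 20% shortest other transcripts (triangles). Old 1 has the lowest median, -0.23, and the diamonds and triangles are also lowest there.

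The annotated start sites are given for 10 of the 12 genes at either end of the age comparison and for Rpl4. The RefSeq promoter table (GRCm38.p6) held 57 of the 77 genes, and where it lists several starts the first was taken. Each window runs from 15 bases before to 15 from the start on, 5′ to 3′ on the gene's strand, and capitals mark its longest run of C and T.
Rps3 (chr7:99483695-99483724, minus): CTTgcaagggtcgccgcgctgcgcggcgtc
Rpl28 (chr7:4792950-4792979, plus): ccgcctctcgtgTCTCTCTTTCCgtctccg
Rpl26 (chr11:68901551-68901580, plus): ctcgcggcaaCTTacagaaccggaagtcgc
Rpl38 (chr11:114668565-114668594, plus): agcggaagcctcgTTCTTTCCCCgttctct
Rps10 (chr17:27635230-27635259, minus): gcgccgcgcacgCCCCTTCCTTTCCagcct
Rpl4 (chr9:64173372-64173401, plus): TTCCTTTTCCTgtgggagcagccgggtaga
Rps27l (chr9:66946071-66946100, plus): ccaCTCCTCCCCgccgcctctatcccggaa
Rpl24 (chr16:55966260-55966289, plus): agaaagctgttgCTaggaaacagactgggc
Rps6 (chr4:86857353-86857382, minus): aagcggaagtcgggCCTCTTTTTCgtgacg
Rps27 (chr3:90213634-90213663, minus): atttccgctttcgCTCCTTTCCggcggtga
Rps23 (chr13:90923107-90923136, plus): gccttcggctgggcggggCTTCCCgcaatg
Long pyrimidine runs at the start stood both in genes with negative values (Rpl28, Rpl38 and Rps10, runs of 11, 10 and 13 bases) and in genes with positive values (Rps6 and Rps27, runs of 10 and 9 bases). Rps3, Rpl26 and Rpl24 had runs of only 3, 3 and 2 bases in these windows.

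Over the 57 genes, 12 (21.1%) had an annotated start base C followed by at least 4 pyrimidines, against 2.50% of the 27025 genes of the promoter table. The letters CTTTC, within 25 bases of the start on the sense strand, stood in 17 of 57 (29.8%) against 6.6% of all genes, or in 35.1% against 12.2% on either strand. The overlapping letters CTCTT on the sense strand stood in 22.8% against 6.90%. The letters CCGGAAG, the core bound by ETS family factors, stood on either strand of the 300-base window in 23 of 57 (40.4%) against 9.10%, and TATAAA in 8.80% against 14.2%. A match is a description of these letters in the annotated window, and annotated starts can lie some bases from the start in use.

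The other proteins of the ribosome and its partners were read from lists of fixed symbols. Fau, a fusion that yields a small subunit protein, had 5.29 to 9.59 CPM in old and 5.97 to 8.0 CPM in young mice, and its log2 fold change was 0.08 ± 0.21 (SE). Rps3a1, a small subunit protein, had 38.2 to 43.8 CPM in old and 41.6 to 57.5 CPM in young mice, at -0.31 ± 0.11 with an adjusted p = 0.335 by edgeR's test. Rpl10-ps3, a retrocopy of Rpl10 that was singled out after its values were seen, had 10, 8, 10 and 12 counts in the old libraries and 1, 3, 1 and 8 counts in the young ones. Its groups were apart in CPM only narrowly, at 1.15 in old 2 and 1.12 in young 4, and the adjusted p = 0.290 by edgeR's test. Rpl10 itself, which shares 85.4% of its words with other genes, had a log2 fold change of -0.01 ± 0.25.

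No gene of the translation lists passed the adjusted threshold by edgeR's test. Genes named from these lists are among the 3 of smallest p in each, unless stated. Over all genes tested, 51.3% of values were negative, 11.0% had an unadjusted p under 0.05 and 5.76% did so with lower values in old mice. Among 39 tested initiation factors 29 values were negative and the median was -0.11, and 8 (20.5%) had an unadjusted p under 0.05, all lower in old mice, against 5.76% of all genes. The subunits Eif3f, Eif3b and Eif3a of the scaffold complex eIF3 had -0.26 ± 0.08, -0.24 ± 0.09 and -0.21 ± 0.07, and are the 3 initiation factors of smallest p. The complex was not uniform: Eif3e stood at 0.18 ± 0.13 and Eif3j1 at 0.05 ± 0.10, named for their positive sign. Of 14 elongation and termination factors 10 were negative, with a median of -0.06. Eef1a2, the form of elongation factor 1A of mature neurons and muscle, had 283 to 348 CPM in old and 352 to 458 CPM in young mice without overlap, at -0.38 ± 0.11 and an adjusted p = 0.216. The control genes of TOP mRNA translation had 16 of 23 negative, with a median of -0.04, and Rictor, a subunit of the mTORC2 complex, stood at 0.24 ± 0.08.

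Genes that build ribosomes had small values as well. Of 91 assembly factors 64 were negative, with a median of -0.04. An unadjusted p under 0.05 was reached by 8 (8.79%), all lower in old mice. Over all genes that share was 5.76% for lower values and 11.0% in either direction. Aamp stood at -0.26 ± 0.08 and Nol6 at -0.21 ± 0.08. Of 23 genes of RNA polymerase I and rDNA transcription 14 were negative, with a median of -0.05, and Polr1b, the second largest polymerase I subunit, had -0.34 ± 0.11. The 20 tested genes of ribosome quality control had a median of -0.03, with Edf1, a factor that senses collided ribosomes, at -0.26 ± 0.11. The mitochondrial ribosomal protein genes had 46 of 77 negative with a median of -0.03. Among them 5 (6.49%) had an unadjusted p under 0.05, all lower in old mice, against the same 5.76% and 11.0% of all genes. Nuclear-encoded oxidative phosphorylation genes, also short and abundant, had 62 of 76 negative with a median of -0.17, and 22 (28.9%) with an unadjusted p under 0.05, all lower in old, against 5.76% of all genes.

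Between the sexes, edgeR's test called none of the 77 genes at an adjusted p under 0.05, against 0.0423% of all genes tested. At an unadjusted p under 0.05 there was 1, Rps15, against 4.76% of all genes. Rps15 had 74.4 and 89.3 CPM in the old females, 97.9 and 91.0 CPM in the old males, 85.6 and 83.3 CPM in the young females and 106 and 91.1 CPM in the young males. Each male lay above each female. The log2 fold change (female minus male) was -0.21 ± 0.09 (SE), with an adjusted p = 0.930. The median over the 77 was 0.03, with 48 positive, beside a median of 0.01 and 7511 of 14191 positive over all genes, and limma-voom and DESeq2 called none of them. The age difference did not differ between the sexes past an adjusted p of 0.05 for any of the 77, nor for any gene tested (0%). Rps20, named for this value, was the 1 gene of the 77 under an unadjusted 0.05 in that test, against 2.30% of all genes, and its interaction was 0.35 on the log2 scale. It had 101 and 107 CPM in the old females, 83.9 and 90.3 CPM in the old males, 85.7 and 94.8 CPM in the young females and 94.1 and 98.2 CPM in the young males. DESeq2 and limma-voom called none of the 77 for the interaction. Each age and sex held 2 animals, and old 1 is 1 of the 2 old males.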

How the data were processed

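Total RNA was extracted with Trizol and columns, and libraries were made after ribosomal RNA removal, per the labels' protocols. The authors deposited raw counts per gene, 1 table per library, per the file headers. The submitters' processing notes name Trimmomatic 0.39, STAR 2.7.5b, SAMtools 1.10, Picard 2.20.8 and featureCounts with GRCm38. Which annotation and strand setting were used, and how reads with several positions were handled, was not stated there. A total of 24 symbols had become dates in 7 tables, and these rows were joined by row order to the table that keeps the symbols. Counts totalled 6079485 to 7236720 per library, and the libraries of a group differed by more than counting error. Nothing says how the replicates were collected beyond 1 animal each.

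Low genes were removed with filterByExpr (minimum 10 counts, 14191 genes) and scaled by TMM. Age, sex and their interaction were tested with edgeR 4.0.16 (R 4.3.3) quasi-likelihood, robust, with Benjamini-Hochberg adjustment over all genes and a threshold of 0.05. Standard errors come from the fold change and its F statistic. Log2 CPM used a prior count of 2. DESeq2 1.42.0, limma-voom (limma 3.58.1), other filters, scalings, covariates and left-out libraries were alternatives, and the tests were checked on simulated counts. Lengths, GC content and coordinates are from GENCODE M21 (GRCm38, 77 of 77 matched). The members, lists and tests were chosen with earlier results of these data known. Named genes were the 6 with the largest and the 6 with the smallest age difference, the 4 highest and lowest per kilobase, the 4 with the widest spread, those without overlap, the stalk genes, Rpsa, paralog pairs and the 3 of smallest p in each list, not all of which are printed. Some genes are not reported here by name.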

Additional observations from a re-analysis of the deposited data

Results flagged for a closer look

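Within the 4 old libraries, old 1 stood apart in the median deviation of the 77 ribosomal protein genes, at -0.232 against 0.042 to 0.058 in the other 3. The gap was 0.945 of the group's whole range, above Dixon's limit for 4 samples. Within the 4 young libraries, Rpl3, which encodes a protein near the peptidyl transferase centre, stood apart in young 4 at 33.25 CPM, against 28.9 to 29.1 CPM in the other 3. Over all 77 genes and both ages, 7 of 154 groups of 4 exceeded the limit, 5 of them through a low value in old 1. Chance flags about 1 in 20 groups.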

How the results depend on the processing

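The ribosomal protein genes gave no age call in any of the other settings but DESeq2, which called 1, Rps3 (-0.318). Their median age difference stayed between -0.071 and 0.012 in all settings, and 37 to 53 of them were negative. It was above 0 only without old 1. The count of all genes called for age moved far more: 17 became 36 without scaling factors, 125 with DESeq2, 1 with limma-voom, 26 with older edgeR dispersions, 125 with a granule neuron score, 5 with a choroid plexus score, 103 with age in weeks, and 0 to 63 when a library was left out (63 without old 2, 49 without old 3, and 0 without young 3 or young 4). The cause was not tested. Counts for sex went from 6 to between 4 and 46 (46 without old 3), and DESeq2 called 1 gene for the interaction.

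With the replicate number as a block, 11 genes and 0 ribosomal protein genes were called. On values centred within each age group, same-numbered libraries correlated at 0.156, -0.222, -0.048 and -0.252. The libraries do not each correlate best with their own number (old 1 with young 2 at 0.481). Centring makes such correlations balance around 0, so they cannot show whether same-numbered animals were handled together.

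The sign changed for genes near 0. Rps15 was 0.012 under the GC correction. Rpl35 was -0.028 with limma-voom, -0.022 with the granule score and -0.074 to 0.192 with a library left out. Rpl10 was 0.036 without scaling, 0.015 with at least 50 counts in 4 libraries, 0.05 with the choroid score, 0.024 with the length correction and -0.232 to 0.249 with a library left out. Rplp2 was -0.005 with limma-voom and Rpsa -0.005 with the granule score, and leaving out a library gave -0.067 to 0.091 and -0.029 to 0.109. Rpl22 was 0.006 without scaling. Rpl7 was -0.006 with the choroid score, -0.017 with the GC correction and -0.054 to 0.043 with a library left out. Left-out libraries also gave -0.016 to 0.298 for Rpl39, -0.06 to 0.144 for Rpl13a, -0.211 to 0.012 for Rpl13 and -0.081 to 0.241 for Fau. The cause was not tested. Of the single-gene values, 1257 kept their direction and side of the threshold and 33 changed sign.

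Depth limits the low genes: 3 counts are 0.415 to 0.493 CPM, and the least counted of the 77 had 193 counts over 8 libraries.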
